A study of Mus musculus with 22 samples.

Results

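The 10 genes described here, Mest, Peg3, Igf2, H19, Dlk1, Meg3, Grb10, Plagl1, Sgce and Peg10, are imprinted genes of the mouse. They were chosen by name, out of 55413 genes in the annotation. The locus of each gene was its span in GRCm38 (GENCODE vM21) with 20 kb added on each side, and every ATAC-seq peak of the 22 libraries that overlapped a locus was taken. After peaks from all libraries had been merged, the 10 loci held 47 of 104657 regions.

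An imprinted gene is expressed from the copy inherited from 1 parent. The choice is set in the germ line by DNA methylation of a control region, which is kept in the embryo by factors such as ZFP57, a zinc-finger protein that binds methylated TGCCGC. At the Igf2 and H19 domain the control region binds the insulator protein CTCF on the maternal copy, which keeps shared enhancers away from Igf2. Many imprinted genes act on growth, and in fat Mest is known as a marker of adipocyte enlargement and Dlk1 (Pref-1) as a preadipocyte factor that is switched off on differentiation. The peak lists do not separate the maternal from the paternal copy.

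In ATAC-seq, a transposase cuts and tags DNA that is accessible, and peaks of the resulting coverage mark open chromatin. The nuclei came from snap-frozen epididymal fat of male AdipoERCre x NuTRAP mice, in which a tamoxifen-inducible Cre active in adipocytes switches on a tag that lets adipocyte nuclei be pulled down by biotin. All groups carried both alleles and received tamoxifen before the diets began, and each library was 1 animal. In the short arm, H (n = 3) had 12 weeks of high-fat diet (HFD) and C (n = 3) had low-fat chow instead, and both were killed at an age of 18 weeks. HC (n = 3) was returned to chow for a further 8 weeks after the 12 weeks of HFD and reached 26 weeks, as did its chow control CC_s (n = 3). In the long arm, CC_l (n = 2) and HH (n = 3, HFD for 25 weeks) were 31 weeks old, and CCC (n = 2) and HHC (n = 3, HFD for 25 weeks and chow for 8 weeks) were 39 weeks old. The arms also differed in age, so duration and age cannot be told apart. The labels do not say whether the arms were separate series of libraries. In the weight loss period both the mice that lost weight and their controls ate another chow than before. A sample of nuclei is a bulk sample, in which fewer cells of a type and less signal per cell cannot be told apart.

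The lists held 40528 to 60523 peaks per library, which covered 128 to 299 Mb. They hold coverage and no read counts, so the depth is unknown. All 12 promoters on a list of adipocyte markers had a peak in every library. Median peak height over the height of the lowest peak, a mark of enrichment, was 2.25 in HHC 3 and 2.43 in HC 3, against 3.67 to 8.92 in the other libraries. In HH 1 all 12 endothelial marker promoters had a peak, against 3 to 10 in the others.

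The sequences below are the 200 bp around the highest point of the strongest region at 4 of the loci, read from GRCm38 on the plus strand. They show which kind of element carried the signal at a promoter that was open (Mest and Peg3), at a control region (H19) and at a distal site (Igf2). Capitals mark TGCCGC or GGNGGCAG, part of the CTCF motif, on either strand, and in Peg3 also GCCATNTT, a core of the motif of YY1, a factor known to bind the Peg3 control region. The YY1 motif was added after the sequence had been seen.
Mest promoter, chr6:30737940-30738139: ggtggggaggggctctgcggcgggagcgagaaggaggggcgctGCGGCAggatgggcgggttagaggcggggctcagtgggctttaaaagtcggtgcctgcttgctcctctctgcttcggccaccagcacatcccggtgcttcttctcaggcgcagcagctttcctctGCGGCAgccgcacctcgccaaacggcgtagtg
Peg3 promoter region, chr7:6728408-6728607: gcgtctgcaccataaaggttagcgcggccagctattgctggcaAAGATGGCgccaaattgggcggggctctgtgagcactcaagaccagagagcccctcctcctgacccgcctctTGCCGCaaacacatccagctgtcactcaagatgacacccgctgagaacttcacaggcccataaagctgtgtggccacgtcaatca
H19 upstream control region, chr7:142580301-142580500: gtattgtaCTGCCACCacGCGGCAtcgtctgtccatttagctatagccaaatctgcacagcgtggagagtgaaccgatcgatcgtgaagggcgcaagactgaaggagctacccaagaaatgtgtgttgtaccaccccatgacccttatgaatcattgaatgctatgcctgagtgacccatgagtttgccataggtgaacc
Igf2 downstream region, chr7:142629981-142630180: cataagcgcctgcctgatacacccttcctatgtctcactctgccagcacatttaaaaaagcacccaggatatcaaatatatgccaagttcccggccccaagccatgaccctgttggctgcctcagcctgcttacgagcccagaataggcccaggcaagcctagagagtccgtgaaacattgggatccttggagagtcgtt

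The Mest window held 16 CpG dinucleotides and 2 TGCCGC, and its centre lay at −10 bp from an annotated start site, where negative values are upstream. The Peg3 window held 9 CpG, 1911 bp downstream of a start site, with 1 TGCCGC and 1 GCCATNTT. The H19 window held 8 CpG with 1 TGCCGC and 1 GGNGGCAG and lay at −2258 bp from the start site. The Igf2 window held 5 CpG and none of these motifs. Among the same windows of all 104657 regions the median was 2 CpG, and TGCCGC was present in 3.55%, GGNGGCAG in 6.68% and GCCATNTT in 4.22%. In regions with a peak in all 22 libraries these shares were 9.94%, 8.58% and 5.10%. A match is a description of letters and does not show binding.

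The 10 loci differed widely in how much of them was open, as the plot of locus signal in each library shows. By the median share of the locus covered by peaks over 22 libraries, Grb10 was first with 24.5%, followed by Peg10 with 20.3%, Sgce with 20.1% and Plagl1 with 17.1%. Peg3 had 11.8%, Mest 7.19%, Igf2 3.31% and Meg3 2.83%. The median was 0 at H19 and at Dlk1. The ranges of neighbours in this order overlapped over the libraries. Sgce and Peg10 share a promoter and part of their loci, so they are not independent.

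**Figure D1:**
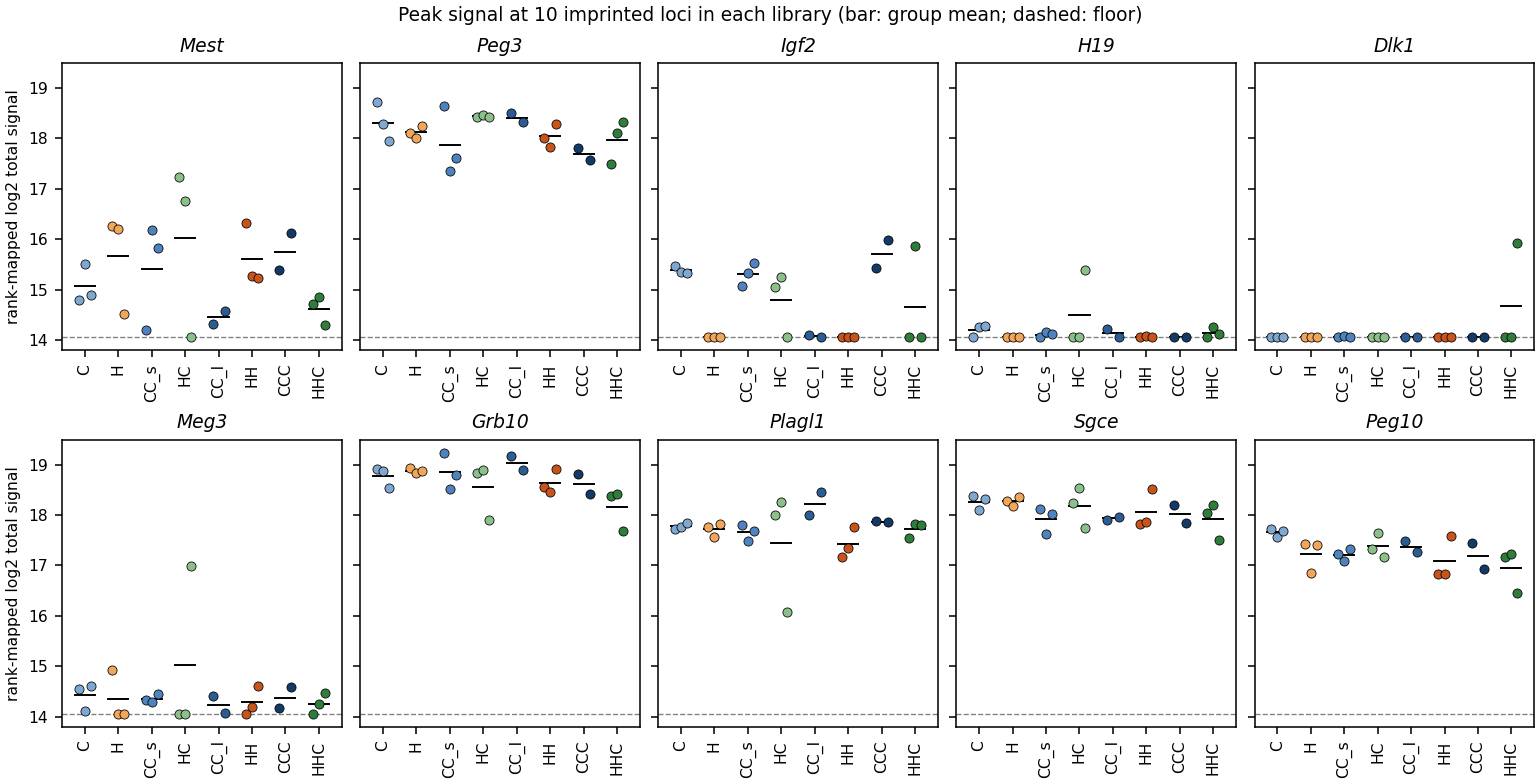
Rank-mapped log2 total signal (y axis) of the peaks in each locus for the 8 groups (x axis), with a point for each library, a bar for the group mean and a dashed line for the floor of 14.06. Igf2 lies at the floor in all 3 H and all 3 HH libraries, and at or next to it in CC_l. Dlk1 lies at the floor in nearly all libraries, whereas Grb10 lies between 17.7 and 19.2.

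Signal at a locus was the summed coverage of its peaks on a log2 scale. It was rank-mapped, so that every library has the same set of values, and loci below a common rank lie at a floor of 14.06. Differences were tested with limma across all loci, all promoters (2000 bp on each side of each start site, floor 14.18) and all regions (floor 14.01). A feature was called at a Benjamini-Hochberg adjusted p under 0.05 with a log2 difference above 1 in size. The p-values below are from limma unless a permutation test is named.

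Igf2, a growth factor, was the only member whose locus was called, and only between H and C. Its signal was 15.47, 15.35 and 15.34 in C, and all 3 H libraries lay at the floor. The adjusted p was 0.0110. Igf2 entered the test only through the C libraries, in which it was above the floor, so its p is no independent support for the difference. Of 8 member loci tested in this pair 1 was called, against 6.65% of all 33199 loci tested, so the count by itself is not a result about the members. With limma, 1 of the 8 had an unadjusted p under 0.05, as did 31.0% of all loci. Since H lay at the floor, no size of the difference is given. The adjusted p was 0.0510 without C 2, 0.0524 with the replicate number as a block, 0.0550 with all 22 libraries in 1 fit and 0.150 on maximum signal.

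The promoters of Igf2 had no peak in any library. In C the signal came from 2 regions beyond the 3′ end of the gene, on the side of H19, as the map of the Igf2 and H19 domain shows. The stronger one, chr7:142627897-142632535, lies 34.3 to 38.9 kb downstream of the outermost start site and overlaps the edge of the locus. The other, chr7:142635376-142640058, lies 26.8 to 31.4 kb from the start site and was picked out after its values had been seen. Neither overlaps an annotated gene. One more region downstream of the start site, chr7:142645623-142648826, had a peak in CCC 2 and HHC 2, the libraries with the highest Igf2 signal, and in no other. Over both durations of obesity the Igf2 locus was above the floor in too few libraries to be tested.

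**Figure D2:**
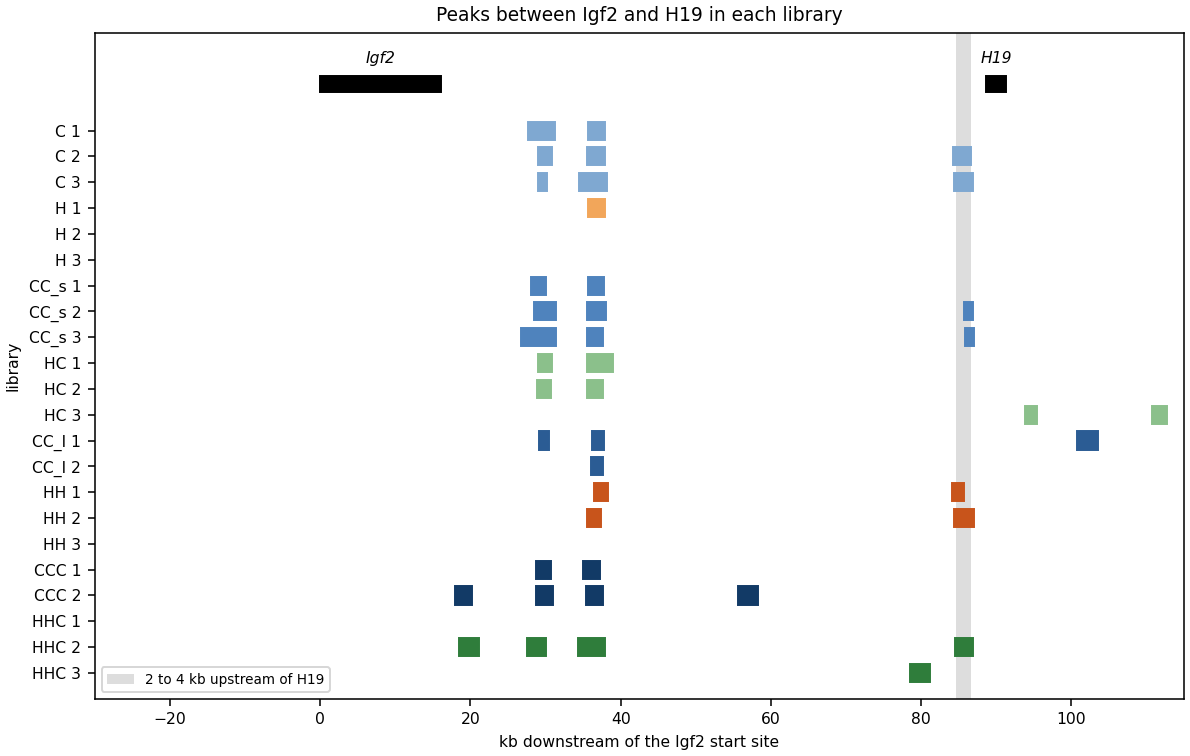
Peaks of each library (rows, coloured by group) against the distance downstream of the Igf2 start site in kb (x axis), with gene spans in black and the window 2 to 4 kb upstream of H19 in grey. The region 26.8 to 31.4 kb downstream has a peak in 4 of 5 C and CC_l libraries and in 0 of 6 H and HH libraries.

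The nearer region had a peak in 0 of 6 obese libraries (H and HH) and in 4 of 5 of their controls. After weight loss it had a peak in 3 of 6 libraries (HC and HHC), against 5 of 5 controls. The farther region had a peak in 3 of 6 obese libraries and 5 of 5 controls, and in 3 of 6 libraries after weight loss and 5 of 5 controls. In H, 1 of 3 libraries had a peak there, and all 3 lay at the region floor, against 14.61, 14.63 and 14.66 in C (adjusted p = 0.0196, and 0.0429 with no filter on low values). Both regions near Igf2 entered this test only through the C libraries. Neither was called.

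The length of the Igf2 locus covered by peaks gave the same order in the short arm without a rank step. It was 3.96, 2.38 and 2.75 kb in C and 0.38, 0 and 0 kb in H. It was 1.34 and 0.019 kb in CC_l and 0, 0.537 and 0 kb in HH. Only CC_l 2 lay within the range of the obese libraries. By signal the long arm held almost no difference, with 14.10 and 14.06 in CC_l and all 3 HH libraries at the floor of 14.06. Averaged over both durations the difference between obese and control libraries was −1.70 kb (two-sided exact permutation within each arm, p = 0.0250, not adjusted for the 10 loci). By this test 3 of 10 members (Igf2, Grb10 and Plagl1) had a p under 0.05, as did 16.5% of all loci with a peak. The smallest p this design allows is 0.005, and within 1 arm it is 0.1. Without CC_l 1 the difference was −1.37 kb and the exact p was 0.0625. When only the gene span or the 20000 strongest peaks of each library were used, no covered length was left.

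After weight loss the Igf2 locus was mixed. Its signal was 15.05, 15.26 and 14.06 in HC, against 15.08, 15.34 and 15.52 in CC_s. In HHC it was 14.06, 15.87 and 14.06, against 15.42 and 15.99 in CCC. The difference over both durations was −0.75 ± 0.38 (SE, adjusted p = 0.347), and −0.42 (adjusted p = 0.577) without HC 3 and HHC 3. HC 3 and HHC 3, the libraries of low enrichment, were both at the floor here. Mesothelial marker promoters moved with the Igf2 values between H and C: 4 to 6 of 12 had a peak in C and 1 to 2 in H, and 4 in each CC_l library against 1 to 3 in HH. The mean signal of these promoters was 14.46 to 14.76 in C and 14.30 to 14.44 in H. In CC_l, despite the 4 marker peaks in each library, the Igf2 signal was only 14.10 and 14.06. After weight loss the marker mean was higher in HHC (14.75 to 15.05) than in CCC (14.46 to 14.63), while Igf2 lay at the floor in HHC 1 and HHC 3. In HC the marker mean was 14.85 to 15.11, and in CC_s 14.58 to 14.96. Of the 12, Cldn15 had a peak in 22 libraries, Lrrn4 in 16, Wt1 in 14 and Krt8 in 13, and Krt18, Upk1b, Bnc1 and Gpm6a had one in none. Enrichment was also lower in H (4.70 to 6.40) than in C (6.82 to 8.92), with no overlap. The mean signal of 12 macrophage marker promoters did not overlap either, at 14.50 to 14.77 in H and 14.79 to 15.00 in C. The part of these values in the result was not tested.

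H19, a non-coding RNA next to Igf2, had its most frequent peak upstream of its start site. The promoter window of H19 was reached by a peak in 6 libraries, and its promoter signal was at the floor in all 22. The window 2 to 4 kb upstream of H19, where the imprinting control region lies, had a peak in 7 of 22 libraries. These were 2 of 3 C, 0 of 3 H, 2 of 3 CC_s, 0 of 3 HC, 0 of 2 CC_l, 2 of 3 HH, 0 of 2 CCC and 1 of 3 HHC libraries. The peaks covered 788 to 2000 bp of the window. The region that holds them was at or close to the floor in every library, with a highest value of 14.32, so no difference can be read from it at this threshold. The whole locus was highest in HC 3, at 15.40. After weight loss the difference at the locus was 0.26 ± 0.25 (SE, adjusted p = 0.590), and without HC 3 the locus was above the floor in too few libraries to be tested over both durations. In HC against CC_s alone it was 0.40 (adjusted p = 0.721), and −0.05 (adjusted p = 0.920) without HC 3.

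On chromosome 12, Dlk1, a membrane protein of the Notch ligand type that holds back fat cell differentiation, was closed. Its promoters had no peak in any library, and its locus held peaks in 5 of 22. Only HHC 3, a library of low enrichment, stood clearly above the floor, with a locus signal of 15.92. Meg3, the maternally expressed non-coding RNA of the same domain, had a promoter peak in 1 library, HC 3. A region 6.26 to 10.9 kb upstream of Meg3, chr12:109530080-109534741, had a peak in 16 of 22 libraries, which were 5 of 5 controls and 3 of 6 obese libraries, and 5 of 5 controls and 3 of 6 libraries after weight loss. The window 10 to 16 kb upstream of Meg3, where the intergenic control region lies, was reached by the peaks of this region in 9 libraries, for 24 to 921 bp. The signal of the Meg3 locus did not pass the test, with a difference of −0.03 ± 0.21 (SE, adjusted p = 0.945) in obesity and 0.32 ± 0.48 (SE, adjusted p = 0.737) after weight loss. HC 3 lay at 16.99, and without both low-enrichment libraries the latter became −0.27.

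Mest, an enzyme-like protein of the endoplasmic reticulum, was open at its promoter in 21 of 22 libraries, with HC 3 as the exception. The peak region, chr6:30735189-30752773, runs from the promoter across the gene and into Copg2. Of the 3 groups of start sites, the one at the CpG-rich sequence shown above had a peak in those 21 libraries, the middle one in 4 and the outermost in none. The locus signal was 14.80, 15.52 and 14.89 in C and 16.27, 16.21 and 14.53 in H. It was 14.33 and 14.58 in CC_l and 16.32, 15.28 and 15.24 in HH. The long-arm groups did not overlap, whereas in the short arm H 3 lay below all 3 controls. The difference in the long arm was 1.16 ± 0.42 (SE, adjusted p = 0.387), and 0.80 (adjusted p = 0.182) without HH 1, the highest of the HH libraries.

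Over both durations Mest was 0.85 ± 0.35 higher in obesity on the log2 scale (SE, adjusted p = 0.119), which is not a call. Of 7 member loci tested over both durations limma called 0, against 6.49% of all loci, and 2 of the 7, Mest and Plagl1, had an unadjusted p under 0.05, as did 33.7% of all loci. Without H 3 the difference at Mest was 1.17 and the adjusted p was 0.0170, and without HH 1 they were 0.68 and 0.154. On maximum signal it was −0.03, and the promoter alone gave 0.05 ± 0.27 (SE, adjusted p = 0.938). The length covered by peaks was 2.49 kb greater in obesity (two-sided exact permutation within arms, p = 0.0700), and 2.95 kb greater once it had been scaled to the length covered in each library (exact permutation p = 0.0450, not adjusted). On that scale 3 of 10 members (Mest, Igf2 and Grb10) had a p under 0.05, as did 18.8% of all loci with a peak.

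After weight loss Mest was not called in either arm. In HC it was 17.23, 16.77 and 14.06, and in CC_s 14.21, 16.18 and 15.83. In HHC it was 14.71, 14.86 and 14.31, and in CCC 15.38 and 16.12. HHC lay below CCC in each library, with a difference of −1.12 ± 0.41 (SE, adjusted p = 0.862). The difference between the arms was 1.74 ± 1.19 (SE, adjusted p = 1), so the arms were not shown to differ. None of the 9 member loci tested passed in HC against CC_s, in HH against CC_l (8 tested) or in HHC against CCC (9 tested), where 0% of all loci was called in each, and none of 9 over both durations of weight loss, against 0.21% of all loci. With limma, 0, 2, 1 and 0 members in turn had an unadjusted p under 0.05, as did 9.15%, 11.6%, 3.91% and 15.97% of all loci. By promoter signal, and leaving aside 4 genes that share a peak with Mest, the 3 genes most like it over 22 libraries were Tmem156 (r = 0.69), D17Wsu92e (r = 0.66) and Gm15948 (r = 0.66), among 19736 genes. The points are the same 22 libraries with their differences in enrichment, so this is a description.

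Peg3, a zinc-finger protein that is paternally expressed, was open in every library. Its promoter region, chr7:6724103-6732742, overlaps both Peg3 and Usp29, and its locus signal ranged from 17.34 in CC_s 2 to 18.72 in C 1. The locus differed by −0.27 ± 0.15 (SE, adjusted p = 0.222) in obesity and by 0.45 ± 0.24 (SE, adjusted p = 0.376) after weight loss. In the long arm HH (17.83 to 18.28) lay below both CC_l libraries (18.31 and 18.49), whereas H overlapped C. The covered length over both durations of weight loss was 2.89 kb greater than in controls (exact permutation p = 0.200). Scaled to the library's covered length it was 4.12 kb greater (exact permutation p = 0.0450, not adjusted). On this scale, chosen after seeing the data, 1 of 10 members had a p under 0.05, as did 8.56% of all loci with a peak.

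Sgce, a sarcoglycan, and Peg10, a gene derived from a retrotransposon, are transcribed away from each other from 1 shared promoter. Their region, chr6:4744171-4751438, had a peak in 22 of 22 libraries, and its signal was 16.51 to 17.22. The Sgce locus differed by 0.06 ± 0.14 (SE, adjusted p = 0.793) in obesity and 0.09 ± 0.20 (SE, adjusted p = 0.823) after weight loss. The Peg10 locus differed by −0.37 ± 0.18 (SE, adjusted p = 0.160) and −0.02 ± 0.21 (SE, adjusted p = 0.974). Within Sgce, the region chr6:4675182-4688788 at the far end of the gene was higher by 0.69 ± 0.21 (SE, adjusted p = 0.0348) in obesity, which was under the size threshold. This region was named after its values had been seen.

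**Figure D3:**
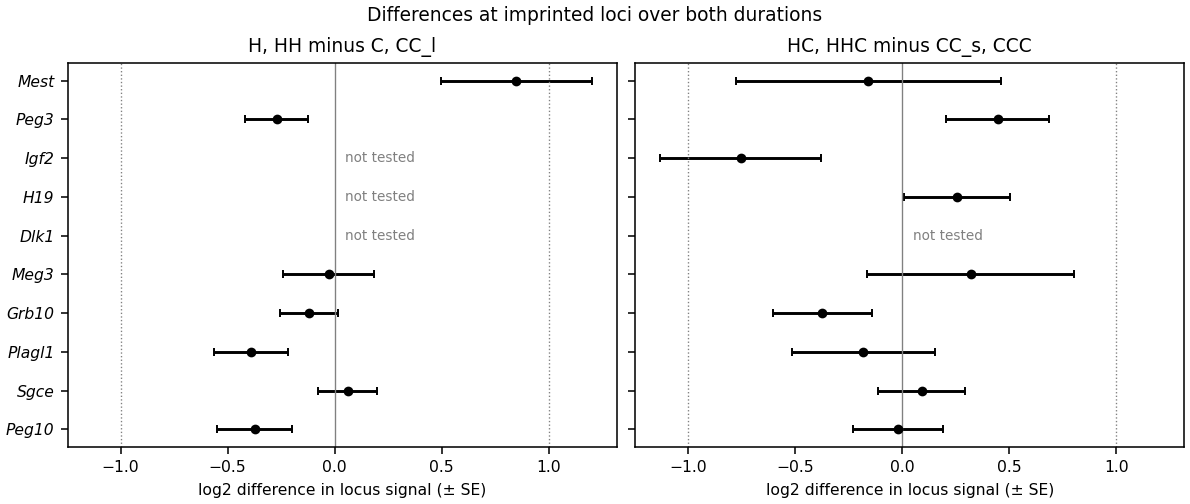
Log2 difference in locus signal (x axis, with standard error) at each member (rows), obese minus control on the left and weight loss minus control on the right, both over the 2 durations. Dotted lines mark a difference of 1 in size, which no member passes, and members that were too rarely above the floor are marked as not tested.

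Plagl1, a zinc-finger transcription factor of the paternal copy, was open at the promoter most transcripts start from in 20 of 22 libraries. Its strongest region, chr10:13127583-13146565, runs over the 3′ end of the gene and had a peak in every library. The locus signal in HH was 17.17, 17.34 and 17.76, below both CC_l libraries at 18.00 and 18.45. The difference was −0.80 ± 0.27 (SE, adjusted p = 0.352), and −0.67 (adjusted p = 0.250) without HH 1, the lowest library. Over both durations of obesity it was −0.39 ± 0.17 (SE, adjusted p = 0.141), and after weight loss −0.18 ± 0.33 (SE, adjusted p = 0.788). The difference in covered length in obesity was −5.26 kb (two-sided exact permutation within arms, p = 0.0450). Without CC_l 2 it was −2.25 kb (exact p = 0.175), and scaled to the library's covered length it was −3.99 kb (exact p = 0.115).

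A region inside Plagl1, chr10:13117540-13126957, had an unadjusted p under 0.01 in both long-arm pairs. Its values were 15.35 and 15.26 in CC_l, and all 3 HH libraries were at the floor (adjusted p = 0.162, and 0.308 with no filter on low values). It entered this test only through the CC_l libraries, in which it was high. Without HH 1 the adjusted p was 0.0955. In HHC it was 14.01, 14.14 and 14.01, against 15.16 and 15.07 in CCC (adjusted p = 0.753). In C it was 14.37, 14.76 and 15.43 and in H 14.94, 14.01 and 14.20, which overlap. Over both durations of obesity 4 of 6 obese libraries were at the floor, so no size of the difference is given. The adjusted p was 0.0266, and 0.0334 without HH 1, but the region was not called, because the fitted value was under the threshold. It was called without C 1 (adjusted p = 0.0148) or without H 1 (adjusted p = 0.00856). On maximum signal the HH difference had an adjusted p of 0.35.

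**Figure D4:**
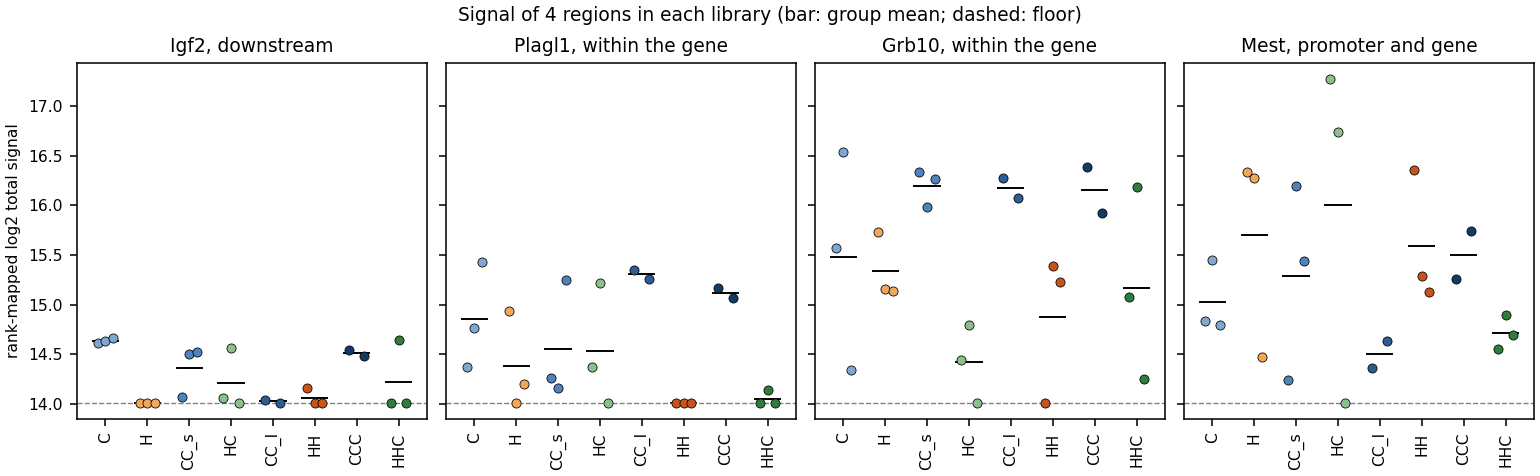
Rank-mapped log2 total signal (y axis) of 4 regions in each library, by group (x axis), with bars for group means and a dashed line for the region floor of 14.01. The Plagl1 region lies at the floor in all 3 HH libraries, and the Grb10 region is lower in HC than in CC_s.

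Grb10, an adaptor protein that dampens insulin receptor signalling, was the most widely open of the 10 loci, with 5 to 14 peaks and 8.71 to 65.2 kb covered in a library. Its strongest region, chr11:11946670-11980815, had a peak in every library. The covered length was 34.1, 50.6 and 45.8 kb in C and 37.4, 30.2 and 35.2 kb in H. It was 37.9 and 41.1 kb in CC_l and 16.8, 31.4 and 27.4 kb in HH, where the groups did not overlap. Averaged over both durations the difference in obesity was −11.8 kb (two-sided exact permutation within arms, p = 0.0300). Without single libraries the exact p was 0.01 to 0.0875, and with the 20000 strongest peaks it was 0.620. The signal differed by −0.12 ± 0.14 (SE, adjusted p = 0.574). Peaks over the whole genome covered 162 to 258 Mb in C and CC_l libraries and 132 to 216 Mb in H and HH libraries, and after scaling to this the exact p was 0.0300.

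One region inside Grb10, chr11:11991700-12002969, which lies 35.7 to 47.0 kb from the start site, was lower after weight loss at an unadjusted p under 0.01. It was 16.33, 15.98 and 16.27 in CC_s and 14.44, 14.80 and 14.01 in HC, so the groups did not overlap (difference −1.78 ± 0.36, SE, adjusted p = 0.141). In CCC it was 16.38 and 15.92, and in HHC 15.08, 16.18 and 14.25. All 3 HC libraries also had lower enrichment (2.43 to 6.50) than the CC_s libraries (7.30 to 7.42) and a higher mean signal of endothelial marker promoters (14.93 to 15.79 against 14.75 to 14.87), and the part of these values in the result was not tested. In obesity the groups of the short arm overlapped, with 15.57, 16.54 and 14.34 in C and 15.73, 15.16 and 15.14 in H (difference −0.14 ± 0.51, SE, adjusted p = 0.865). Those of the long arm did not, with 16.27 and 16.08 in CC_l and 14.01, 15.39 and 15.23 in HH (difference −1.30 ± 0.48, SE, adjusted p = 0.316). Over both durations of obesity the difference was −0.66 ± 0.39 (SE, adjusted p = 0.244). Over both durations of weight loss it was −1.42 ± 0.35 (SE, adjusted p = 0.0590), which is just outside the threshold. It was past it without HHC 2 (−1.66, adjusted p = 0.0282), with all 22 libraries in 1 fit (−1.38, adjusted p = 0.0380) and with median centring (−1.34, adjusted p = 0.0144). HC 3, which lies at the floor, is a library of low enrichment, and without HC 3 and HHC 3 the difference was −1.09 (adjusted p = 0.0504). With the replicate block it was −1.27 (adjusted p = 0.143).

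**Figure D5:**
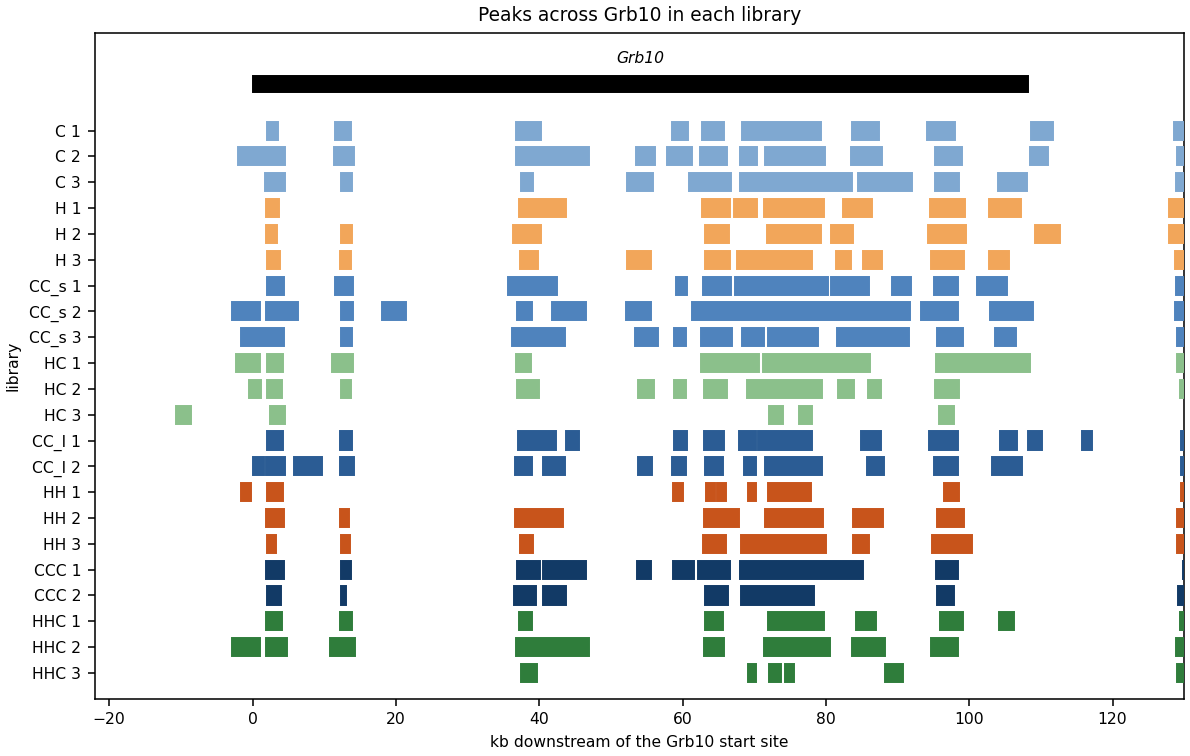
Peaks of each library (rows, coloured by group) against the distance downstream of the Grb10 start site in kb (x axis), with the gene span in black. The cluster of peaks 57.9 to 92.0 kb downstream is present in all 22 libraries, while peaks 35.7 to 47.0 kb downstream are missing in HC 3 and HH 1.

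The Grb10 promoters were lower in HHC (16.70, 16.85 and 16.12) than in CCC (18.24 and 18.31), a difference of −1.72 ± 0.36 (SE, adjusted p = 0.938). Without HHC 3 it was −1.501 (adjusted p = 0.548). The signal sums every peak touching any of 6 windows, including windows inside the gene. The inner window chr11:11968642-11972642 was reached in 2 of 2 CCC and 1 of 3 HHC libraries. The nearby long peak began 68.0 and 68.1 kb from the start site in CCC, and 71.9 and 71.4 kb in HHC 1 and HHC 2. The outermost window was reached in 2 of 2 CCC and 2 of 3 HHC libraries. The part of these peak edges in the difference was not tested. In HC against CC_s the difference was −0.43 ± 0.85 (SE, adjusted p = 0.864), with 18.58, 18.64 and 15.74 in HC and 19.05, 17.68 and 17.52 in CC_s. Over both durations it was −1.001 ± 0.55 (SE, adjusted p = 0.490), and −0.39 (adjusted p = 0.821) without HC 3 and HHC 3. At an unadjusted p under 0.01 with a difference above 1 in size, HHC against CCC had 1 of 6 member promoters, against 0.85% of all promoters tested. Of 6 member promoters tested in each comparison limma called 0, and at an unadjusted p under 0.05 there was 1 in HHC against CCC, 1 over both durations of weight loss (Plagl1) and 0 in the others. At that p lay 3.98% of all promoters in HHC against CCC and 11.7% over both durations of weight loss, and 6.71% to 22.9% in the others. The share of all promoters called was 2.96% in H against C, 0.118% in HC against CC_s, 0.0935% in HH against CC_l, 0% in HHC against CCC, 3.46% over both durations of obesity and 0.0741% over both durations of weight loss. The region at the 3′ end of Grb10, chr11:11925979-11945358, was higher in H than in C by 0.80 ± 0.19 (SE, adjusted p = 0.0271), under the size threshold, and was named after its values had been seen.

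No region of the 10 loci was called by limma in any comparison, and 2 to 8 had an unadjusted p under 0.05. The most were 8 of 20 over both durations of obesity, against 37.2% of all regions, and 4 of 22 in H against C, against 34.9%. In the other comparisons 2 or 3 of 21 to 23 lay there, against 6.14% to 18.1% of all regions. The share of all regions called was 8.28% in H against C, where 22 member regions were tested, and 6.16% over both durations of obesity, where 20 were tested. It was 0.942% over both durations of weight loss and 0% in the 3 other pairs. At an unadjusted p under 0.01 with a difference above 1 there was 1 member region each in HC against CC_s (Grb10, background 2.54%), in HH against CC_l (Plagl1, background 2.68%), in HHC against CCC (Plagl1, background 0.706%) and over both durations of weight loss (Grb10, background 2.83%). The number of member regions tested was 20 to 23, and a count of 1 is too small to be set against these shares.

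Of 49 other imprinted genes, 44 loci were tested in H against C and 44 over both durations of obesity. In each, 3 were called lower and 0 higher, against 6.65% and 6.49% of all loci called in either direction, so the counts are near the background. At an unadjusted p under 0.05 there were 8 higher and 8 lower in H against C (31.0% of all loci) and 6 higher and 13 lower over both durations (33.7%). Cdkn1c, an inhibitor of the cell cycle, was 15.32, 16.21 and 15.82 in C, and all 3 H libraries were at the floor (adjusted p = 0.0151), so that it entered the test only through the C libraries. It was 16.52 and 16.29 in CC_l and 15.72, 14.06 and 14.06 in HH, and over both durations the adjusted p was 0.00400. There too the control libraries, all above the floor, were enough by themselves for Cdkn1c to be tested. Its p-values are therefore no independent support for the difference. Dio3, which inactivates thyroid hormone and lies in the domain of Dlk1 and Meg3, was 16.91, 16.63 and 15.20 in C and 14.27, 14.06 and 14.12 in H (adjusted p = 0.0344). It was 16.70 and 15.75 in CC_l and 14.82, 14.06 and 14.06 in HH (adjusted p = 0.00268 over both durations). The control libraries, all above the floor, were enough by themselves for Dio3 to be tested in both comparisons. Its p-values are therefore no independent support for the difference either.

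Osbpl5, a lipid transfer protein, was called lower in H against C, a difference of −1.10 ± 0.22 (SE, adjusted p = 0.0299). Enrichment and the mean signal of the mesothelial and macrophage marker promoters, given for Igf2, were lower in H than in C without overlap, and their part in the values of Cdkn1c, Dio3 and Osbpl5 was not tested either. Slc22a18, a transporter whose locus overlaps that of Cdkn1c, was called lower over both durations of obesity (adjusted p = 0.0337). Over both durations of weight loss none of 44 loci was called, against 0.21% of all loci. At an unadjusted p under 0.05 there were 7 higher and 5 lower (15.97% of all loci in either direction). The 3 of smallest p were Cdkn1c (adjusted p = 0.0923), Dio3 (−1.06 ± 0.32, SE, adjusted p = 0.181) and Usp29 (0.77 ± 0.25, SE, adjusted p = 0.208). The Usp29 locus overlaps that of Peg3. At Cdkn1c, HC 1, HC 2 and HHC 3 lay at the floor, so no size of the difference is given. None of 28 promoters of this list was called by limma in H against C, where 3 higher and 1 lower had an unadjusted p under 0.05, as did 21.4% of all promoters.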

How the data were processed

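ATAC-seq was performed by the authors on labelled adipocyte nuclei. Per the submitters' processing notes, reads were handled with Trim Galore 0.6.6, Bowtie2 2.4.4, SAMtools 1.13, bedtools 2.30 and SEACR 1.3. The deposited lists give, for each peak, the total and the maximum signal, that is coverage summed over the peak and at its highest base, called per library without pooling and with no stated normalization.

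Peaks on the autosomes and sex chromosomes were kept. Signal was rank-mapped over libraries and tested with limma 3.58.1 (R 4.3.3, lmFit, eBayes with trend), because the lists hold no read counts. A feature was tested if the number of libraries above the floor reached the size of the smaller side of the comparison. Covered length was compared by exact permutation over libraries (Python 3.11.15, pandas 2.3.3). The code was tested on simulated data.

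The named members were all 10 genes. Regions were named if strongest in a locus, called, or past an unadjusted p of 0.01 with a difference above 1 in size. Regions with an adjusted p under 0.05 at any size, and every Igf2 region, were added after the values had been seen. Of 49 other imprinted genes, those called were named, otherwise the 3 of smallest p. The members, lists and rules were chosen with earlier results of these data known. Alternatives were peak strength, maximum signal, centring, overlap, filter, flank, promoter window, 1 fit for all libraries, a replicate block and leaving libraries out.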

Additional observations from a re-analysis of the deposited data

Results flagged for a closer look

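Effects of obesity that differed between the short and the long arm by the interaction term of limma, at an unadjusted p under 0.05, were found at 1 of 7 member loci and at 2 of 20 member regions, against 5.14% of all loci and 6.002% of all regions. None of the 3 passed after adjustment over all features. At the Plagl1 locus the difference between obese and control libraries was 0.73 ± 0.29 in the short arm minus the long arm (SE, adjusted p = 0.939). At the farther region downstream of Igf2 the fitted value was −0.66 ± 0.18 (SE, adjusted p = 0.687), which is no measure of size, since all 3 H libraries, CC_l 2 and 2 of 3 HH libraries were at the floor. At the 3′ region of Grb10 it was 1.21 ± 0.45 (SE, adjusted p = 0.823). The arms also differ in age, and duration and age cannot be told apart. Groups of 2 or 3 libraries were not screened for single outlying libraries.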

How the results depend on the processing

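The call at Igf2 in H against C was absent (0 member loci called) with all 22 libraries in 1 fit, with the replicate block, on maximum signal, with 50% overlap, with the 20000 strongest peaks, with no flank, with a 5 kb flank and by covered length (1.81% to 6.08% of all loci called), and the count was 0 to 1 when single libraries were left out (1.26% to 6.69%). Over both durations of obesity the count of loci was 1 (Plagl1) with no flank (5.45% of all loci) and 0 to 1 on leaving libraries out (Mest, without H 3, 6.56%). For regions, counts were 2 on maximum signal in H against C (the nearer Igf2 region and Plagl1, chr10:13086416-13095451, against 8.73% of all regions), 1 with median centring in HC against CC_s (Grb10, 0.438%), 1 with the replicate block in obesity over both durations (at Sgce and Peg10, chr6:4726019-4743410, against 6.02%), and 1 with all 22 libraries in 1 fit or median centring after weight loss (Grb10, 2.46% and 2.67%). Leaving libraries out gave 0 to 1 in H against C (Mest region, without H 3, 7.55%), HH against CC_l (Plagl1, without CC_l 1 or 2, 0.634% and 0.915%, where all HH libraries are at the floor and 1 control is left, so these calls support nothing), obesity over both durations (Mest without H 3, Plagl1 without C 1, H 1 or H 2, Grb10 without C 3, Sgce without HH 3, 5.26% to 6.96%) and weight loss over both durations (Grb10, without HHC 2, 0.80%). Covered length passed at 3 members in obesity (16.5% of all loci), at 1 with the 20000 strongest peaks and at 0 to 3 on leaving libraries out (0 without CC_l 1, and Igf2 alone without C 2, C 3, H 2, CC_l 2, HH 1 or HH 2). After weight loss it passed at 0 members (6.76% of all loci), at 0 to 1 on leaving libraries out (Igf2, without HHC 2), and at 1 when scaled to the library's covered length (8.56%).

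Some differences that were not called changed sign. Over all comparisons the sign of 19 of 47 member locus differences changed on maximum signal. With median centring it changed in 9 of 50, and on leaving 1 library out in 36 of 357. Those listed here are over both durations. In obesity Sgce was −0.0355 with the replicate block, −0.0033 on maximum signal and −0.0143 with median centring, and −0.0355 to 0.104 on leaving libraries out. On maximum signal Mest was −0.033, Peg3 0.0015 and Grb10 0.21. Meg3 was 0.24 with median centring and −0.16 to 0.0511 on leaving libraries out. After weight loss Peg10 was 0.10 with the replicate block, 0.0832 with the strongest peaks, 0.20 on maximum signal and 0.0682 with median centring. Mest was 0.18 with the strongest peaks and 0.26 with median centring, Plagl1 0.16 and Meg3 −0.72 on maximum signal. On leaving libraries out Sgce ran from −0.017 to 0.19, Peg10 from −0.10 to 0.12, Mest from −0.56 to 0.24, Plagl1 from −0.38 to 0.16 and Meg3 from −0.21 to 0.52. Without HC 3 and HHC 3, an alternative chosen after seeing the data like the scaling of covered length, Peg10 was 0.15, Mest 0.43, Plagl1 0.17 and Meg3 −0.27. The cause was not tested. Replicate numbers did not pair the libraries: the correlation of deviations of same-numbered libraries was −0.18 to 0.19 over regions and −0.22 to 0.26 over loci.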
